A study of Mus with 12 samples.

Results

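The constant regions of antibody genes tell which class of antibody a B cell makes, and 10 such transcripts were followed in mouse blood: the heavy chain constant genes Ighm, Ighd, Igha, Ighe, Ighg1, Ighg2b, Ighg2c and Ighg3, the kappa light chain constant gene Igkc, and Jchain, which joins IgM and IgA units into polymers. They were taken by gene name from a table of 25247 genes, and all 10 were found, each in a single row. The libraries were made from the blood of 12 BALB/c mice, all female, aged 6 weeks at the start and killed on day 30, with 3 mice in each of 4 groups and 1 library per mouse. The Solvent group received acetone and olive oil on the shaved back and right ear. The DNCB group received 1-chloro-2,4-dinitrobenzene (DNCB), a skin sensitiser, at 1% for sensitisation and then at 0.5% for repeated challenge. This gives a dermatitis with features of atopic dermatitis that is driven by a chemical and not by a genetic barrier defect. The scMSC and scivMSC groups received the same DNCB course and, during the challenge, repeated doses of 2e6 human umbilical cord mesenchymal stem cells (MSC). The scMSC group received each dose under the skin beside the lesion, whereas in the scivMSC group each dose was split between the skin and the tail vein. No group was given MSC without DNCB.

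A B cell that has not met antigen carries IgM and IgD, which are spliced from the same long transcript over Ighm and Ighd. On activation it can cut out the DNA between its variable segment and a downstream constant gene, a step called class switching, and then makes IgG, IgE or IgA with the same variable segment. IL-4 is the classical signal for switching to IgG1 and IgE in mice, and TGF-beta for switching to IgA. Plasma cells, which secrete antibody, hold far more immunoglobulin transcript per cell than naive B cells do, and they also express Jchain. The row of a constant gene counts membrane and secreted forms together, and it also counts the germline transcripts that are made from an unswitched gene, so it does not give the number of switched cells or the concentration of antibody in serum.

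In the deposited coordinates, which lie on the mouse build GRCm38, the heavy chain genes are ordered on the minus strand of chromosome 12. Ighm (ENSMUSG00000076617, chr12:113418558-113422730) comes first and is followed by Ighd (chr12:113406604-113416324), Ighg3 (chr12:113356224-113361232), Ighg1 (chr12:113325240-113330523), Ighg2b (chr12:113302965-113307933), Ighg2c (chr12:113285325-113288932), Ighe (chr12:113269260-113273248) and Igha (chr12:113254830-113260236). Igkc lies on the plus strand at chr6:70726435-70726966, and Jchain on the minus strand at chr5:88519809-88527891. The IgG genes are close copies of each other, so the division of reads among them is uncertain. BALB/c mice carry the Ighg2a allele where the reference strain has Ighg2c, so the Ighg2c row rests on reads that matched another strain's sequence.

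Each library summed to between 52.2e6 and 65.1e6 estimated counts, and haemoglobin genes took 78.4% to 89.0% of these. Low counts are mostly multiples of 4, so a sequenced fragment may be worth about 4 counts. Markers of other cells moved strongly between the groups: the summed level of 10 neutrophil markers was 220 to 445 FPKM (fragments per kilobase of gene, scaled to the library total) in Solvent, 6958 to 10928 in DNCB, 572 to 716 in scMSC and 243 to 729 in scivMSC. The sum of 15 B cell markers, with none of the 10 genes among them, was 61.8 to 188 FPKM in Solvent, 16.5 to 45.6 in DNCB, 18.4 to 26.6 in scMSC and 5.35 to 10.8 in scivMSC. Solvent replicate 1 had the most B cell transcript, and scivMSC replicate 2 had both the least and the fewest detected genes. The part of this cell content in the values below was not tested, and in bulk blood fewer B cells and less transcript per B cell cannot be told apart.

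A gene was tested when it reached 1 FPKM in at least 3 of the 12 libraries, as 5527 genes did. Of the 10 genes, 8 passed. Ighe and Ighg3 reached 1 FPKM in no library, whereas Ighg2b passed through 4 libraries and Ighg2c through 3, all of them from the Solvent and scMSC groups. For these 2 genes the filter itself favours levels that are higher in Solvent and scMSC than in DNCB and scivMSC. This bears on the counts of called genes below. A gene is said to have risen or fallen when its adjusted p in edgeR's quasi-likelihood test, corrected over all 5527 genes, was under 0.05 and its level differed more than 2-fold. Changes are given as log2 fold change ± standard error at equal total counts per library. The p-values rest on an estimate of the spread between mice that is shared over all 4 groups of 3. It is not the spread within the compared groups alone, so a library of another group can change a call. The comparisons share groups, and are therefore not independent of one another.

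Most classes were lower after DNCB. Against Solvent, Ighm, Ighd, Igkc, Jchain, Igha and Ighg2b fell, 6 of the 8 tested, while 4.87% of all tested genes fell. The filter favours such a fall for Ighg2b, which is among these 6, and for Ighg2c, which is not. The 8 genes had a median log2 fold change of -1.89, and all tested genes one of 0.06. Both unswitched genes, the light chain, Jchain and IgA fell by similar amounts, and Ighg1 was the gene that departed from them. Of the 8 genes, 5 had groups that did not overlap in the lower direction, as had 16.5% of all tested genes. The B cell markers fell along with them, 12 of 12 tested, with a median of -2.12.

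Ighm and Ighd, the genes of the naive B cell receptor, fell with DNCB and were also low in both MSC groups. Ighm stood at 84.9, 58.0 and 33.2 FPKM in the Solvent libraries, at 12.5, 22.9 and 11.3 in DNCB, at 16.4, 10.6 and 15.9 in scMSC and at 6.33, 5.03 and 7.92 in scivMSC. The Solvent libraries were all above the 9 others, DNCB and scMSC overlapped, and scivMSC lay below every other library. Ighm fell by 1.92 ± 0.37 with DNCB (edgeR, adjusted p = 0.00143). In scMSC against DNCB it was not called (-0.13 ± 0.36, adjusted p = 0.806). In scMSC it remained below Solvent, at -2.04 ± 0.37 (adjusted p = 0.026), the only one of the 8 genes that passed in that comparison, in which 0.326% of all genes fell. That call was lost without Solvent replicate 1 (-1.67, adjusted p = 0.119), Solvent replicate 2 (-2.05, 0.0731), scMSC replicate 1 (-2.15, 0.0877), scMSC replicate 2 (-1.87, 0.189) or scMSC replicate 3 (-2.13, 0.11), with the direction kept.

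Ighd followed the same order of groups at a lower level. It stood at 42.7, 14.5 and 9.74 FPKM in Solvent, 3.28, 10.2 and 3.29 in DNCB, 2.86, 2.59 and 5.75 in scMSC and 1.72, 0.665 and 1.49 in scivMSC. Solvent replicate 1 stood far above the other Solvent mice, and DNCB replicate 2 reached the lowest of them, so the Solvent and DNCB groups overlapped. The change with DNCB was -2.00 ± 0.58 (edgeR, adjusted p = 0.0206), and it missed the threshold without Solvent replicate 1 (-1.11, adjusted p = 0.18), DNCB replicate 1 (-1.73, 0.0857) or DNCB replicate 3 (-1.73, 0.0892). In scMSC against Solvent the value was -2.59 ± 0.59 (adjusted p = 0.0578), with every scMSC library below every Solvent library. It passed without Solvent replicate 3 (-2.95, 0.0439), DNCB replicate 2, scivMSC replicate 1 or scivMSC replicate 2 (each -2.59, with 0.0312, 0.0202 and 0.00589), and under TMM scaling, which brings the median of all genes near 0 (-1.91, edgeR adjusted p = 0.0124). Ighd per 100 Ighm FPKM was 50.3, 25.1 and 29.3 in Solvent, 26.2, 44.4 and 29.2 in DNCB, 17.4, 24.3 and 36.1 in scMSC and 27.1, 13.2 and 18.8 in scivMSC. These ratios overlapped between all groups.

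Igkc, the constant part of the kappa light chain that most mouse antibodies of any class use, was the most abundant of the 10. Its level was 214, 216 and 91.5 FPKM in Solvent, 53.0, 65.9 and 24.2 in DNCB, 193, 100.3 and 87.3 in scMSC and 41.9, 22.5 and 46.2 in scivMSC. The DNCB libraries were all below the Solvent and the scMSC libraries, which overlapped each other. Igkc fell by 1.86 ± 0.44 with DNCB (edgeR, adjusted p = 0.00595) and was higher in scMSC than in DNCB by 1.40 ± 0.43 (adjusted p = 0.0241). The latter call rested on single mice, since it was lost without scMSC replicate 1 (0.96, adjusted p = 0.137) or DNCB replicate 3 (1.08, 0.0873).

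**Figure D1:**
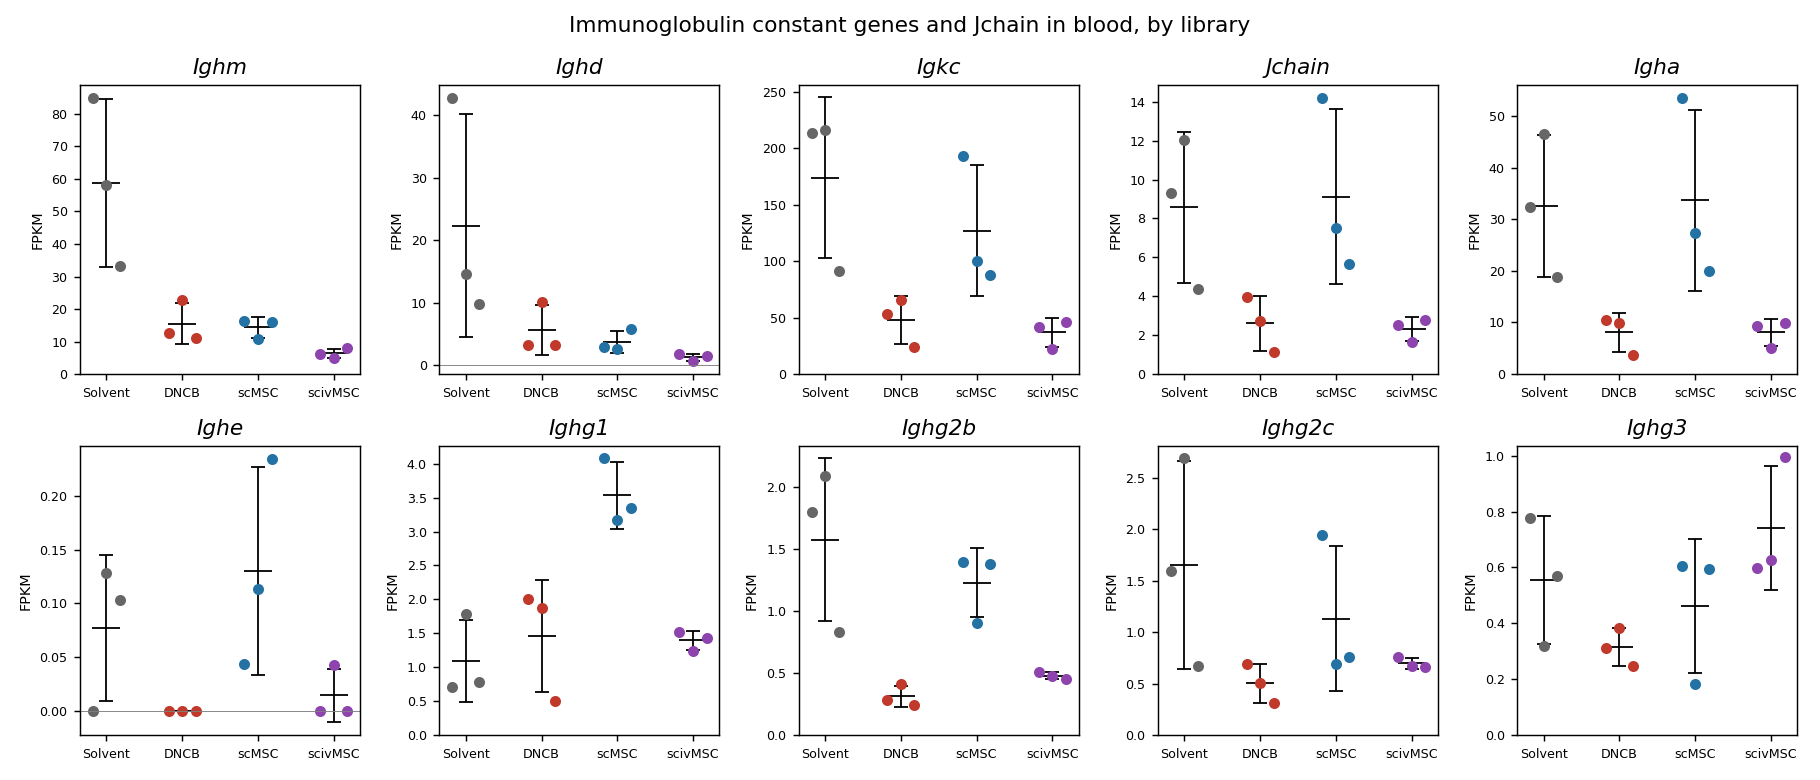
Level of each of the 10 genes in FPKM (linear axis, separate for each gene) in the Solvent, DNCB, scMSC and scivMSC groups. Each point is 1 library of 1 mouse, and the bars show the mean ± SD over 3 libraries. Igha, Igkc and Jchain were low in DNCB and scivMSC and high in Solvent and scMSC, whereas Ighm stayed between 10.6 and 16.4 FPKM in scMSC, below the Solvent minimum of 33.2.

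In scMSC against DNCB the switched and secretion-related genes separated from the unswitched pair. Igha, Ighg2b, Jchain and Igkc rose, 4 of the 8 tested, while 1.27% of all tested genes rose, and 0 of the 8 fell, beside 24.9% of all tested genes. The median of the 8 was 1.33 and that of all tested genes -0.63. In this direction 6 of the 8 had groups that did not overlap, as had 5.54% of all tested genes. Ighm and Ighd were not among either set. Ighg2b and Ighg2c had entered the 8 only through Solvent and scMSC libraries, which favours a rise in this comparison. With both set aside, the genes called were Igha, Jchain and Igkc. Leaving out scMSC replicate 1, which had the highest Igha and Jchain of the 12 libraries, left Igha and Ighg2b as the 2 genes called. In that fit, with the filter not redone, 51 of all 5527 tested genes rose. Under TMM scaling the genes called were 6, with Ighg1 and Ighg2c added, against 8.74% of all genes.

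Igha, the constant gene of IgA, the antibody of mucosal surfaces, fell with DNCB and was back in the Solvent range or above it in scMSC. It stood at 32.4, 46.4 and 18.8 FPKM in Solvent, 10.5, 9.97 and 3.73 in DNCB, 53.5, 27.4 and 20.0 in scMSC and 9.24, 5.14 and 9.82 in scivMSC. Every Solvent and scMSC library was above every DNCB and scivMSC library. It fell by 2.01 ± 0.45 with DNCB (edgeR, adjusted p = 0.00457) and rose by 2.05 ± 0.46 in scMSC against DNCB (adjusted p = 0.00371), and both calls held with any 1 of the 12 libraries left out. In scMSC against Solvent the value was 0.04 ± 0.44 (adjusted p = 0.956).

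Jchain moved with Igha in every group. Its level was 9.29, 12.0 and 4.37 FPKM in Solvent, 3.96, 2.74 and 1.14 in DNCB, 14.2, 7.51 and 5.64 in scMSC and 2.50, 1.63 and 2.80 in scivMSC. Jchain was between 0.233 and 0.376 FPKM per FPKM of Igha in all 12 libraries, a narrow range beside the changes of both genes. The fall with DNCB was -1.71 ± 0.48 (edgeR, adjusted p = 0.0175), and was lost without Solvent replicate 2 (-1.38, adjusted p = 0.0948), DNCB replicate 2 (-1.74, 0.0506) or DNCB replicate 3 (-1.35, 0.0752). The rise in scMSC against DNCB was 1.79 ± 0.48 (adjusted p = 0.0116), and was lost without scMSC replicate 1 (1.32, 0.0747). Per 100 FPKM of Igkc, Jchain stood at 6.46 to 7.49 in scMSC and 5.98 to 7.27 in scivMSC, against 4.35 to 5.58 in Solvent, while DNCB spanned 4.17 to 7.47.

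The IgG genes were far less abundant, with 26 to 583 counts per library. Ighg1, the IgG subclass that IL-4 favours, was the only 1 of the 8 tested genes whose fitted value was above 0 in DNCB against Solvent, at 0.42 ± 0.48 (edgeR, adjusted p = 0.59), which is within its error. It stood at 0.712, 1.79 and 0.774 FPKM in Solvent, 2.00, 1.88 and 0.505 in DNCB, 4.09, 3.17 and 3.34 in scMSC and 1.52, 1.23 and 1.43 in scivMSC. All 3 scMSC libraries were above the 9 others, which overlapped one another. In scMSC the difference was 1.26 ± 0.49 from DNCB (adjusted p = 0.0646) and 1.68 ± 0.49 from Solvent (adjusted p = 0.0953), and neither passed. Both passed when scivMSC replicate 1 or scivMSC replicate 2 was left out of the fit, which gave edgeR adjusted p = 0.0403 and 0.0322 against DNCB and 0.0414 and 0.0271 against Solvent.

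Ighg2b, another IgG subclass, was high in Solvent and scMSC and low in DNCB and scivMSC, unlike Ighg1. It stood at 1.80, 2.09 and 0.834 FPKM in Solvent, 0.285, 0.408 and 0.244 in DNCB, 1.40, 0.906 and 1.38 in scMSC and 0.506, 0.476 and 0.452 in scivMSC. Solvent and scMSC overlapped, and no other pair of groups did. Ighg2b fell by 2.31 ± 0.47 with DNCB (edgeR, adjusted p = 0.00185) and rose by 1.95 ± 0.46 in scMSC against DNCB (adjusted p = 0.00552). Both calls were kept when any 1 library was left out, with the filter not redone. It had passed that filter only through Solvent and scMSC libraries, which favours both directions. With edgeR's filterByExpr, a filter on counts, the values were -2.31 (edgeR, adjusted p = 0.00484) and 1.95 (0.0141). The Ighg2c row, which passed the filter in the same way, was 1.59, 2.70 and 0.669 FPKM in Solvent, 0.688, 0.509 and 0.308 in DNCB, 1.95, 0.691 and 0.758 in scMSC and 0.757, 0.673 and 0.664 in scivMSC. Its Solvent and DNCB libraries overlapped, and the change of -1.71 ± 0.60 did not pass (adjusted p = 0.0531). It passed without Solvent replicate 3 (-2.08, 0.0317), scMSC replicate 1, scivMSC replicate 1 or scivMSC replicate 2 (each -1.71, with 0.0488, 0.0352 and 0.0308). It also passed under TMM scaling (-1.88, edgeR adjusted p = 0.014), where 7 of the 8 genes fell with DNCB, beside 11.5% of all tested genes.

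The balance among the IgG genes shifted towards Ighg1 in every DNCB-treated group. Ighg1 made up 14.6%, 25.9% and 27.2% of the summed FPKM of the 4 IgG genes in Solvent. The share was 60.9%, 59.1% and 38.7% in DNCB, 50.9%, 64.0% and 55.0% in scMSC and 44.9%, 40.9% and 40.4% in scivMSC. The lowest of the 9 DNCB-treated libraries was above the highest Solvent library. Ighg1 per FPKM of Ighg2b was 0.395, 0.853 and 0.928 in Solvent, below 1 in each mouse, and between 2.07 and 7.03 in the 9 others. In DNCB the divisor rested on only 48, 70 and 42 counts of Ighg2b. There the shift went with the fall of Ighg2b (-2.31), while Ighg1 was not called (0.42). The IgG sum also holds the Ighg2c row, which rests on another strain's sequence. Such ratios within a library do not depend on how libraries are scaled, and they are given without a test because they combine genes that were chosen together.

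**Figure D2:**
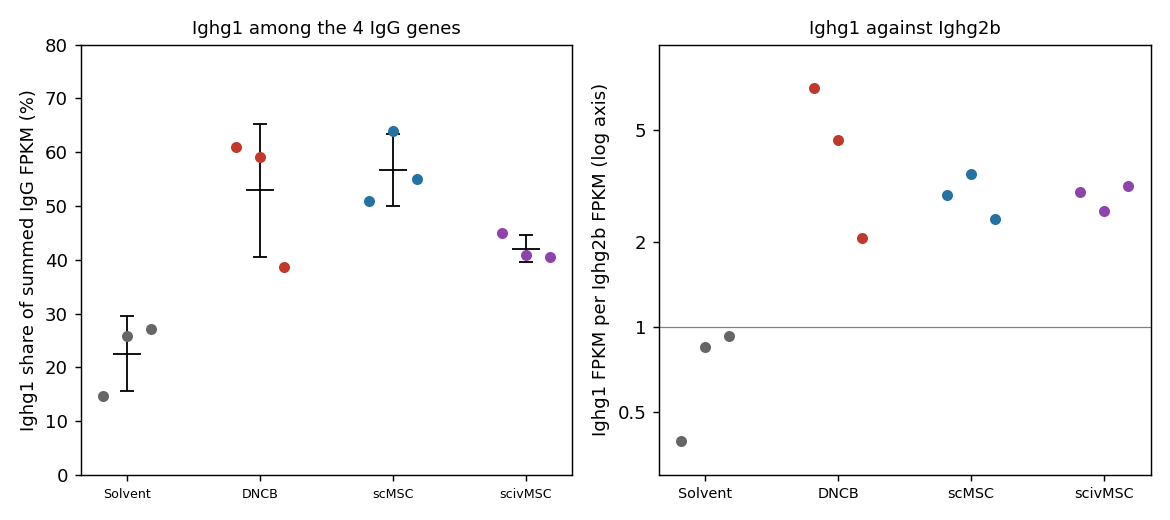
Ighg1 as a percent of the summed FPKM of Ighg1, Ighg2b, Ighg2c and Ighg3 (left, linear axis, mean ± SD over 3 libraries) and Ighg1 FPKM per Ighg2b FPKM (right, log axis, line at 1), with 1 point per library. The Solvent libraries lie at 14.6% to 27.2% and below a ratio of 1, and all 9 DNCB-treated libraries lie above them.

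Ighg3 was below 1 FPKM in all 12 libraries and stayed outside the tested genes. It stood at 0.776, 0.317 and 0.570 FPKM in Solvent, 0.312, 0.382 and 0.247 in DNCB, 0.606, 0.183 and 0.594 in scMSC and 0.598, 0.627 and 0.995 in scivMSC. The scivMSC libraries were all above the DNCB libraries, and the other pairs of groups overlapped. When all detected genes were fitted, the value in scivMSC against DNCB was 1.23 ± 0.65 (edgeR, adjusted p = 0.188).

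Ighe, the constant gene of IgE, the antibody that arms mast cells and basophils, was at the edge of detection. It had 0, 14 and 12 counts in Solvent, 0, 0 and 0 in DNCB, 4, 12 and 23 in scMSC and 0, 4 and 0 in scivMSC. The highest level was 0.235 FPKM, in scMSC replicate 3, and 6 of the 12 libraries had any count. At about 4 counts per fragment the sum over all 12 libraries, 69 counts, stands for very few fragments. A count of 0 allows up to 12 counts (3 fragments) in a library, so no fold change is given. With every detected gene in the fit, the adjusted p was 0.209 for DNCB against Solvent and 0.147 for scMSC against DNCB (edgeR). The fitted direction was lower in DNCB in both, and neither passed. A rise of Ighe transcript in the blood of DNCB mice was not detectable at this depth.

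Set against each other in FPKM, the unswitched and switched classes changed places in the MSC groups. The switched share, the summed FPKM of Igha, Ighe and the 4 IgG genes as a percent of all 8 heavy chain genes, was 22.6%, 42.4% and 33.6% in Solvent and 46.7%, 28.5% and 25.7% in DNCB. It was 76.1%, 71.0% and 54.8% in scMSC and 61.0%, 59.0% and 58.7% in scivMSC. The 6 libraries from MSC-treated mice, at 54.8% and above, did not overlap with the other 6, at 46.7% and below. Group means were 32.9% ± 9.91, 33.6% ± 11.4, 67.3% ± 11.1 and 59.6% ± 1.29 in that order (SD, n = 3), so DNCB alone left the mean share close to that of Solvent. In FPKM, Igha exceeded Ighm in all 3 scMSC and all 3 scivMSC libraries, and in 0 of the 6 Solvent and DNCB libraries. FPKM divides by gene length. In counts, Igha also exceeded Ighm in Solvent replicate 2 (8062 against 7126) and DNCB replicate 1 (1733 against 1454). From counts the mean switched share was 40.1% in Solvent, 40.7% in DNCB, 73.8% in scMSC and 66.6% in scivMSC.

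Within the switched sum Igha was the main part in every library, from 62.8% to 86.9%. The 4 IgG genes together took 2.96%, 5.47% and 4.40% of all heavy chain FPKM in Solvent, 11.1%, 6.88% and 6.66% in DNCB, 9.93%, 10.8% and 12.7% in scMSC and 16.3%, 21.7% and 15.6% in scivMSC. The IgG share was thus lowest in Solvent and highest in scivMSC, with no overlap of either group with the rest. Summed over the same 4 genes, however, the level in scivMSC, 3.01 to 3.54 FPKM, was within the Solvent range of 2.85 to 6.89, and the larger share went with lower Ighm, Ighd and Igha.

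**Figure D3:**
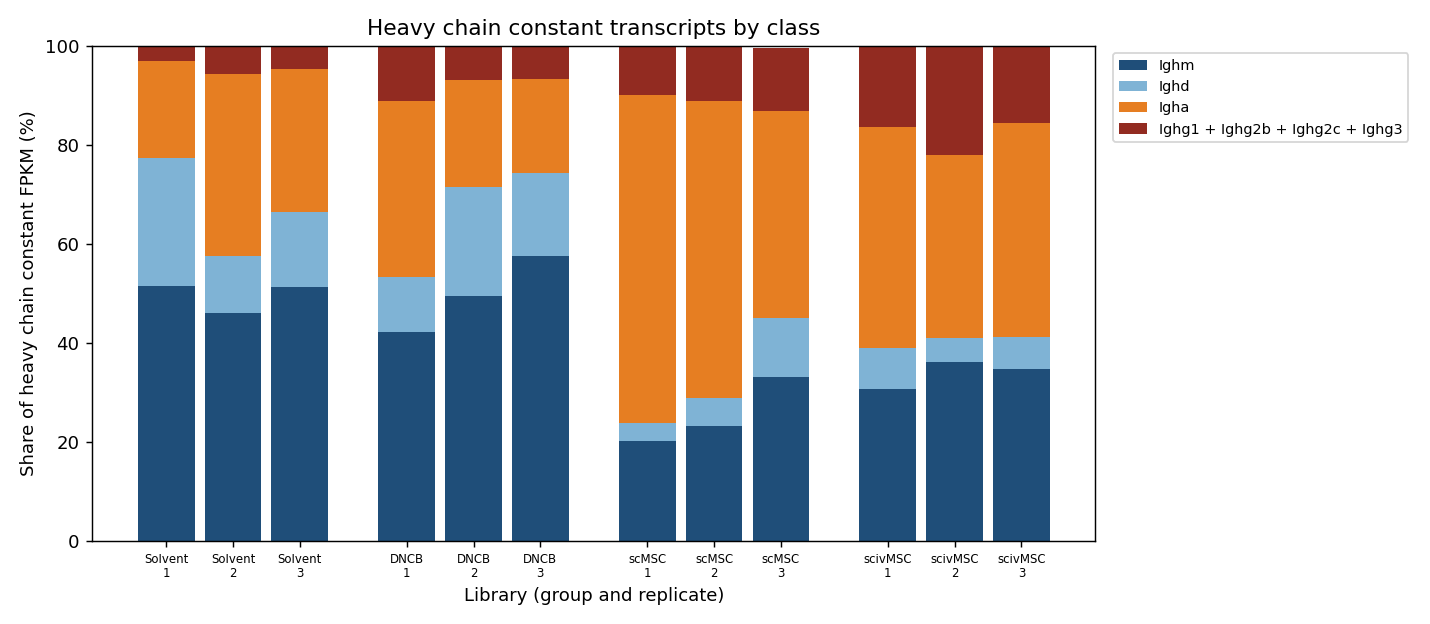
Share of each class in the summed FPKM of the 8 heavy chain constant genes (percent, linear axis), with 1 bar per library. Ighm and Ighd (blue) make up 53.3% to 77.4% of the Solvent and DNCB bars and 23.9% to 45.2% of the scMSC and scivMSC bars, and Ighe, at most 0.488% of a library, is not drawn.

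The combined route gave another pattern from the subcutaneous route. In scivMSC against DNCB, Ighm (-1.28 ± 0.37, edgeR adjusted p = 0.00605) and Ighd (-2.11 ± 0.59, adjusted p = 0.00504) fell, 2 of 8, beside 62.0% of all tested genes, whose median was -1.53. The 6 other genes had values from -0.38 (Igkc) to 0.60 (Ighg2b) and were not called, with Igha at -0.01 ± 0.44. They therefore lay above the median of all genes while Ighd lay below it. Both falls missed the threshold without DNCB replicate 2 (Ighm -0.89, adjusted p = 0.0499 with a fold under 2, and Ighd -1.34, 0.0506). Under TMM scaling the picture turned: 0 of the 8 fell (18.9% of all genes did) and 6 rose, namely Igkc (1.28), Jchain (1.47), Igha (1.64), Ighg1 (1.63), Ighg2b (2.31) and Ighg2c (2.15), against 20.6% of all genes that rose, while Ighm (0.44) and Ighd (-0.46) were not called.

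Against Solvent, scivMSC had 6 of 8 genes lower, beside 59.2% of all tested genes. Ighd (-4.11 ± 0.64), Ighm (-3.19 ± 0.39), Igkc (-2.24 ± 0.45), Igha (-2.01 ± 0.45), Jchain (-1.89 ± 0.49) and Ighg2b (-1.71 ± 0.46) fell, and the median of all genes was -1.47. Ighg1 stood at 0.35 ± 0.48 (edgeR, adjusted p = 0.536). Under TMM scaling Ighm (-1.62) and Ighd (-2.55) were the genes that fell, beside 13.4% of all genes, and Ighg1 (1.78) rose, beside 22.4%, so the order of the genes was kept and its centre was not.

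Between the routes, 6 of 8 genes were lower in scivMSC than in scMSC, beside 30.4% of all tested genes. These were Igha (-2.05 ± 0.46), Jchain (-1.97 ± 0.49), Igkc (-1.77 ± 0.44), Ighg2b (-1.34 ± 0.45), Ighg1 (-1.33 ± 0.49) and Ighm (-1.15 ± 0.37), with adjusted p from 0.0108 to 0.0465 in edgeR. The call depended on the mice and on the scaling. Without scMSC replicate 1 only 1 gene passed, and without scMSC replicate 3, scivMSC replicate 2 or scivMSC replicate 3 it was 3 genes. The number of all tested genes called lower dropped as well, from 1682 with every library to 502, 720, 774 and 716 in that order. Under TMM scaling 0 of the 8 passed (4.92% of all genes were lower), with Igha at -1.10 (adjusted p = 0.0573).

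**Figure D4:**
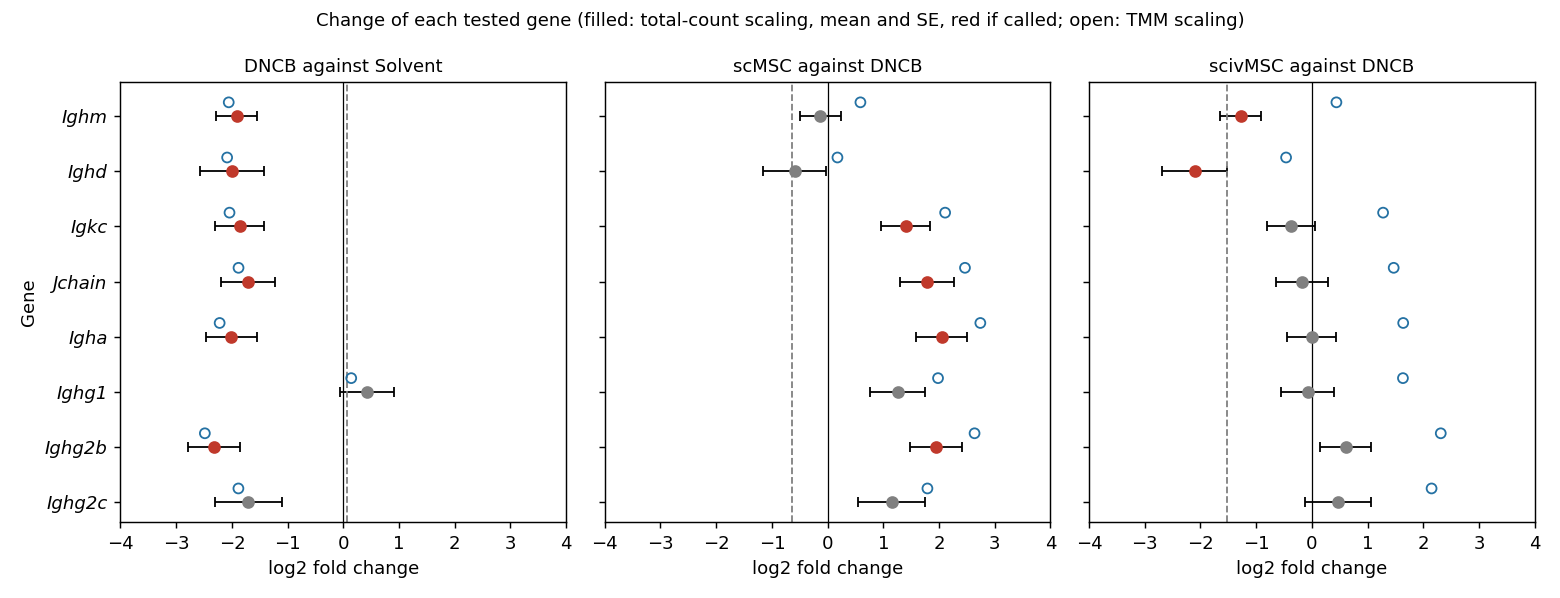
Log2 fold change of the 8 tested genes in the comparisons with DNCB. Filled points with bars show the value ± SE at equal total counts (red where called), open points the value under TMM scaling, and the dashed line the median of all 5527 tested genes. In scivMSC against DNCB the filled points lie around 0 for the switched genes and at -1.28 and -2.11 for Ighm and Ighd, and the open points of the switched genes all lie above 1.

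Read per B cell transcript, with libraries scaled to the summed counts of the 15 B cell markers, Ighm and Ighd stood apart from the other genes. This scaling moved the median of all genes from 0.06 to 2.20 in DNCB against Solvent. On it, Ighm had values from 0.05 to 0.65 and Ighd from -0.33 to 0.18 over the comparisons of DNCB, scMSC and scivMSC with their controls, and neither was called in any. With DNCB, Igkc (0.24), Jchain (0.46), Igha (0.06) and Ighg2b (-0.19) were not called either, and Ighg1 was the gene that rose (2.35, edgeR adjusted p = 0.000147), beside 87.4% of all tested genes. In scMSC against DNCB, Igha (2.24), Ighg2b (2.07), Jchain (1.93), Igkc (1.63) and Ighg1 (1.45) rose, beside 1.38% of all tested genes. In scivMSC against DNCB the 5 same genes and Ighg2c rose, by 1.27 (Igkc) to 2.33 (Ighg2b), beside 18.2%.

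The per-library ratios give the spread within each group, and the share of all genes that separate on them was not computed. Ighm per FPKM of summed B cell markers was 0.451 to 0.680 in the Solvent and DNCB libraries and 0.578 to 0.941 in the MSC libraries. Igkc was 1.13 to 2.63 in the former and 3.29 to 8.85 in the latter, without overlap. Igha stood at 0.172 to 0.523 in Solvent and DNCB and at 0.753 to 2.45 in the MSC groups, also without overlap. Ighg1 was 0.00378 to 0.0185 in the Solvent libraries, 0.0305 to 0.0995 in DNCB, 0.126 to 0.187 in scMSC and 0.133 to 0.230 in scivMSC. Only the last 2 of these ranges overlapped. The divisor itself was 61.8 to 188 FPKM in Solvent, 16.5 to 45.6 in DNCB, 18.4 to 26.6 in scMSC and 5.35 to 10.8 in scivMSC. In FPKM, Ighg1 overlapped between Solvent and DNCB. Scaled on the B cell list, 87.4% of all tested genes were called higher in DNCB against Solvent.

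**Figure D5:**
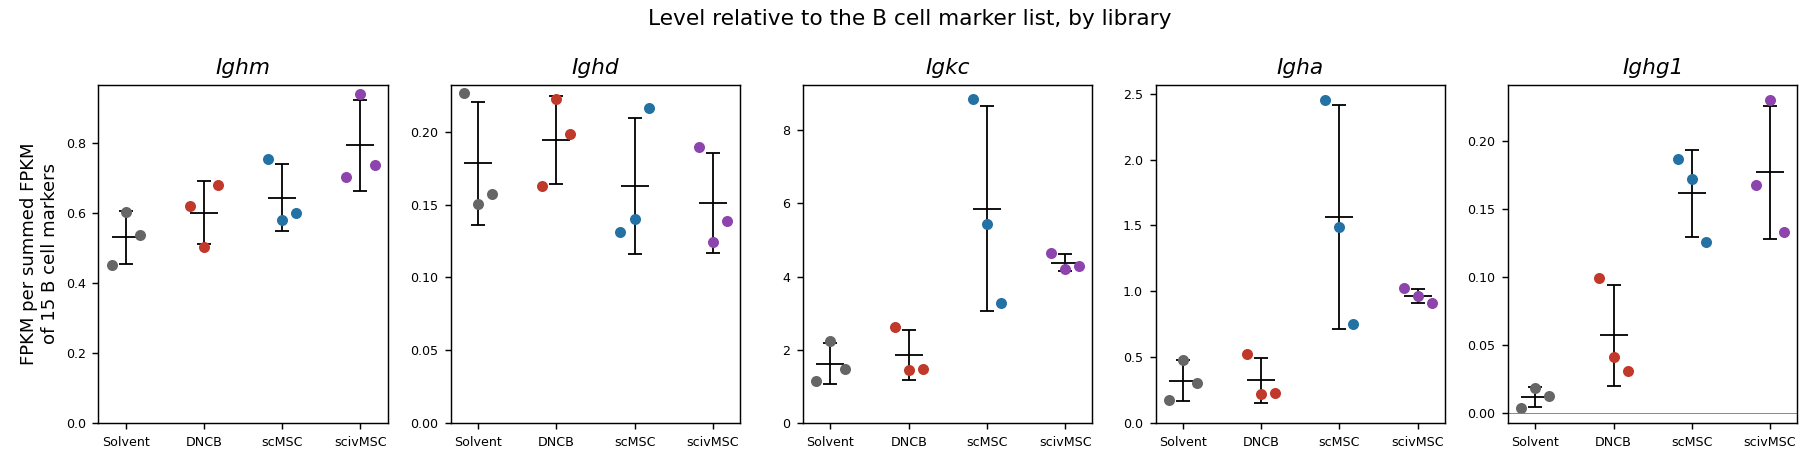
FPKM of Ighm, Ighd, Igkc, Igha and Ighg1 divided by the summed FPKM of 15 B cell markers in the same library (linear axes starting at 0 or just below). Points are libraries and bars the mean ± SD over 3 libraries. Ighd overlaps between all groups, whereas Igkc and Igha are higher in all 6 MSC libraries than in the 6 others, and Ighg1 is lowest in Solvent. The divisor is highest in Solvent.

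The lambda light chain genes fell with DNCB as the kappa gene did, and were not called in scMSC against DNCB. Of 7 lambda and surrogate light chain genes, 3 were tested, Iglc1, Iglc2 and Iglc3. All 3 fell with DNCB (median -2.11), beside 4.87% of all tested genes. None was called in scMSC against DNCB, with Iglc1 at 0.66, Iglc2 at 0.12 and Iglc3 at 0.07, while Igkc rose by 1.40. The lambda constant genes made up 21.9%, 12.9% and 19.3% of light chain FPKM in Solvent, 13.4%, 14.3% and 22.0% in DNCB, 6.24%, 6.61% and 11.1% in scMSC and 9.57%, 11.8% and 11.7% in scivMSC. All 6 MSC libraries were below the other 6.

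Few genes of antibody secretion and plasma cells were called in the comparisons in which Igkc and Igha first fell with DNCB and then rose in scMSC against DNCB. Of 18 genes listed, 11 were tested. With DNCB, 2 fell, Pou2af1, a B cell coactivator (-1.68), and Mzb1, a chaperone of antibody assembly (-1.92), beside 4.87% of all tested genes. Under TMM scaling 5 fell, beside 11.5%. In scMSC against DNCB 0 of 11 were called in either direction (median -0.32), beside 1.27% of all tested genes higher and 24.9% lower. Under TMM scaling 3 rose (median 0.37), beside 8.74% of all tested genes. Among the most abundant of the list, Hsp90b1, an endoplasmic reticulum chaperone, stood at 0.23, Edem1, which disposes of misfolded glycoproteins, at -0.22, and Herpud1, of the same quality control, at -0.62. In scivMSC against DNCB 7 fell, beside 62.0% of all tested genes (median -1.35, all genes -1.53). Under TMM scaling 2 rose, which is near the share of all tested genes (20.6%), and none fell, beside 18.9%.

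Class switching genes and their signals gave 9 tested of 20. With DNCB, Il13ra1, a receptor chain for IL-13, and Nfil3, a transcription factor induced by IL-4, rose, beside 15.6% of all tested genes. Cd40lg, the T cell ligand that triggers switching, fell, beside 4.87%. After scMSC, against DNCB, 5 fell, beside 24.9% of all tested genes, and none rose. Those that fell included Stat6, the transcription factor of the IL-4 receptor (-1.31), the receptor chain Il4ra (-1.77) and Id2, an inhibitor of transcription factors (-1.25), while Tgfb1 stood at -0.57. Under TMM scaling 3 fell, beside 12.3% of all tested genes, and 1 rose, beside 8.74%, and Stat6 was not called (-0.58). In scivMSC against DNCB 6 fell, beside 62.0% of all tested genes, with Stat6 at -2.93 and Il4ra at -3.28. Under TMM scaling 4 fell, beside 18.9%, with Stat6 at -1.37 and Il4ra at -1.73. Many of these genes are expressed in other blood cells too, and the neutrophil and monocyte markers changed in the same directions in these comparisons.

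Antibody Fc receptors, which bind the constant regions on other cells, gave 7 tested of 12. With DNCB, Fcer1g (2.67), the signalling chain shared by IgE and IgG receptors, Fcgr3 (2.98) and Fcgr4 (3.05), which bind IgG, rose, beside 15.6% of all tested genes. At the same time Fcmr, the IgM receptor of lymphocytes (-2.08), was 1 of 2 that fell, beside 4.87% of all tested genes. Against DNCB, 4 fell in scMSC, beside 24.9% of all tested genes, among them Fcer1g (-2.67), Fcgr3 (-2.19) and Fcgr4 (-2.41). In scivMSC against DNCB all 7 fell, beside 62.0% of all tested genes, with -3.15, -3.47 and -3.86 for the 3 genes in that order. Under TMM scaling 4 of the 7 fell in the latter comparison, beside 18.9% of all genes, with these 3 at -1.45, -1.94 and -2.36 and Fcmr at 0.03. The receptors of myeloid cells thus moved against Igha and Igkc in both of the first comparisons. Fcmr and Fcer2a are counted among the B cell markers as well.

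Other lymphocyte and myeloid lists are given for scale. In scMSC against DNCB the B cell list had 0 of 12 called (median -0.28), the T cell list 0 of 10 (0.52), the NK cell list 0 of 4 (-0.24), the platelet list 1 of 7 lower (-0.37) and the erythroid list 0 of 4 (0.03), whereas 10 of 10 neutrophil and 5 of 6 monocyte genes fell, beside 24.9% of all tested genes. None of these lists had a gene that rose at equal total counts, as 4 of the 8 immunoglobulin genes did. For Ighg2b, 1 of these 4, the filter favours that direction. Under TMM scaling, however, 9 of 10 T cell, 1 of 4 NK cell and 1 of 7 platelet genes rose too, beside 8.74% of all tested genes. With DNCB, 9 of 10 T cell and 3 of 4 NK cell genes fell, beside 4.87% of all tested genes. In the same comparison 10 of 10 neutrophil, 3 of 6 monocyte and 4 of 7 platelet genes rose, beside 15.6%, and 0 of 4 erythroid genes were called.

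The genes whose profiles over the 12 libraries were most like those of the unswitched and secretory members came from separate sets. Likeness was the root mean square difference of log2(FPKM + 1) values, each centred on its own mean. For Ighm the nearest 5 were Iglc2, Cd79a, H2-Eb1, Cd74 and Cd79b, at 0.205 to 0.228, where the median gene was at 0.954. These include both signalling chains of the B cell receptor and genes of antigen presentation. For Igkc the nearest were Ighv2-9, Igkv2-109, Igkv1-117, Igkv3-10 and Igkv3-12, all antibody variable segments (0.275 to 0.382). For Jchain they were Igkv3-12, Igkv6-23, Igkv17-121, Ighv2-9 and Igkv1-117 (0.290 to 0.325). Ighg1 had no close match: mt-Rnr1, Snap23, Inf2, Ifit2 and Lrrc70 were nearest, at 0.338 to 0.369, beside a root mean square of 0.528 for Ighg1 itself. These are descriptions over libraries that share groups and depth, and carry no test.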

How the data were processed

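Blood RNA from 12 mice was sequenced, and the authors deposited 1 table with an estimated count and an FPKM value per gene and library. The submitters' processing notes name Bowtie 0.12.2, HISAT2 2.0, StringTie 1.3.0 and the build mm8. However, 97.5% of 15733 protein-coding symbols start or end within 1000 bases of their RefSeq position on GRCm38, so the coordinates were read as GRCm38. Strand handling is not given in the sources used here. The deposited FPKM values are scaled to a total that includes haemoglobin.

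The deposited counts were tested with edgeR 4.0.16 (R 4.3.3, quasi-likelihood, all 12 libraries, 4 group means, total-count scaling, Benjamini-Hochberg over 5527 genes), because the study selects genes by a fold change over 2. The step was tested on simulated data. TMM and B cell scaling, totals without haemoglobin, DESeq2 1.42.0, limma 3.58.1 on log2(FPKM + 1), other filters, a replicate block and leaving out each library were alternatives. Counts divided by 4 were added after seeing the data. No 2 libraries of a group agreed within sampling noise.

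The 10 genes and the lists were chosen with earlier results of these data known. All 10 are named, with the 4 most abundant tested genes of each pathway list and the 5 nearest profiles of Ighm, Igkc, Jchain and Ighg1. Mzb1, Il13ra1, Nfil3, Cd40lg and Fcer2a were named after their values were seen. The floor given for Ighe covers counting error only, whereas the ± values also include the spread between mice.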

Additional observations from a re-analysis of the deposited data

How the results depend on the processing

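With 3 mice per group and 26 to 583 counts for each IgG gene, the IgG values are the least certain, and Ighe is near the limit of detection. With libraries left out set aside, 370 gene-level values kept direction and call over the 11 other settings, 62 changed direction, 47 newly passed and 49 no longer passed. The cause was not tested. In scMSC against DNCB, Igha and Jchain rose under each of these 11 settings, Ighg2b under all but limma with a pseudocount of 1 (0.76) and Igkc under all but filterByExpr (1.40, adjusted p = 0.0535 in edgeR).

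Sign changes were most frequent under other scalings. Under TMM scaling the sign changed in scMSC against DNCB for Ighm (0.59) and Ighd (0.18), in scivMSC against DNCB for Ighm (0.44), Igkc (1.28), Jchain (1.47), Igha (1.64) and Ighg1 (1.63), in scMSC against Solvent for Igkc (0.067) and Ighg2b (0.15), in scivMSC against Solvent for Ighg2c (0.27), in scivMSC against scMSC for Ighg2c (0.36). DESeq2 with its own size factors gave the opposite sign in scMSC against DNCB for Ighm (0.55) and Ighd (0.15), in scivMSC against DNCB for Ighm (0.44), Igkc (1.27), Jchain (1.46), Igha (1.63) and Ighg1 (1.64), in scMSC against Solvent for Igkc (0.066) and Ighg2b (0.15), in scivMSC against Solvent for Ighg2c (0.30), in scivMSC against scMSC for Ighg2c (0.39). Both gave, for the 8 genes, 6 higher and 0 lower in scivMSC against DNCB, 1 higher and 2 lower in scMSC against Solvent, and 1 higher and 2 lower in scivMSC against Solvent. Of all 5527 tested genes, TMM scaling and DESeq2 had 1137 and 1153 higher and 1043 and 1079 lower in scivMSC against DNCB. They had 402 and 451 higher and 67 and 105 lower in scMSC against Solvent. For scivMSC against Solvent it was 1240 and 1294 higher and 741 and 734 lower. In scivMSC against scMSC TMM scaling gave 0 lower and DESeq2 1, beside 272 and 276 of all tested genes. Without haemoglobin in the totals the sign changed in scMSC against DNCB for Ighm (0.28), in scivMSC against DNCB for Igkc (0.22), Jchain (0.39), Igha (0.58) and Ighg1 (0.53), with 1 gene higher and 1 lower in scivMSC against DNCB and 1 higher and 2 lower in scMSC against Solvent. Of all tested genes, 341 were then higher and 2567 lower in scivMSC against DNCB, and 180 higher and 218 lower in scMSC against Solvent.

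Per B cell transcript the sign changed in DNCB against Solvent for Ighm (0.23), Ighd (0.18), Igkc (0.24), Jchain (0.46), Igha (0.060) and Ighg2c (0.48), in scMSC against DNCB for Ighm (0.051), in scivMSC against DNCB for Ighm (0.43), Igkc (1.27), Jchain (1.40), Igha (1.61) and Ighg1 (1.66), in scMSC against Solvent for Ighm (0.28), Igkc (1.87), Ighg2b (1.88) and Ighg2c (1.72), in scivMSC against Solvent for Ighm (0.65), Igkc (1.51), Jchain (1.86), Igha (1.67), Ighg2b (2.14) and Ighg2c (2.59), in scivMSC against scMSC for Ighm (0.37), Ighd (0.0015), Ighg1 (0.21), Ighg2b (0.26) and Ighg2c (0.87). Counts of called genes on this scale were 1 up and 0 down for DNCB against Solvent, 6 up and 0 down for scivMSC against DNCB and for both MSC groups against Solvent, and 0 down between the MSC routes (scivMSC against scMSC). Of all 5527 tested genes, 4830 were up in DNCB against Solvent and 1007 in scivMSC against DNCB. In scMSC and scivMSC against Solvent 4687 and 4909 were up, and 29 were down between the routes. Most tested genes thus rose against Solvent on this scale.

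With limma the sign changed in scivMSC against DNCB for Igha (0.062 and 0.082 at pseudocounts of 1 and 0.1) and Ighg1 (0.024 and 0.13), and a pseudocount of 1 gave 1 higher and 2 lower in scMSC against Solvent, beside 44 higher and 167 lower among all tested genes. In that comparison the fit to 2 groups alone gave 1 higher and 2 lower, counts divided by 4 and no filter 2 lower each, and edgeR's filterByExpr 0 lower. Of all genes, the fit to 2 groups alone had 133 higher and 1016 lower, and counts divided by 4 had 37 lower. Without a filter 76 of 25247 genes were lower, and with filterByExpr 0 of 14615. The fit to 2 groups alone gave 0 lower in scivMSC against scMSC, beside 4 of all tested genes. In scivMSC the switched share was 66.6% from counts and 63.8% with Ighm alone as the unswitched class.

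The replicate numbers were not taken to pair the mice, since deviations of same-numbered libraries correlated at -0.200 to 0.173 over 18 pairs. A replicate block changed the sign in scivMSC against DNCB for Jchain (0.037), Igha (0.17) and Ighg1 (0.067), in scMSC against Solvent for Igha (-0.00817), and 0 genes were then lower in scMSC against Solvent. The block also ended the call of Ighd in DNCB against Solvent (-1.84) and made Ighg1 in scMSC against DNCB (1.38) and Ighg2c in DNCB against Solvent (-1.68) pass.

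Leaving out 1 library at a time gave 2 to 5 genes higher in scMSC against DNCB and 0 to 2 lower in scivMSC against DNCB. It gave 0 to 1 higher and 0 to 2 lower in scMSC against Solvent and 1 to 7 lower in scivMSC against scMSC. Of all 5527 tested genes, the same fits had 42 to 91 higher in scMSC against DNCB. In scivMSC against DNCB 2928 to 3903 were lower. In scMSC against Solvent 4 to 112 were higher and 0 to 712 lower. In scivMSC against scMSC 502 to 2925 were lower. Values near 0 crossed it: in scMSC against DNCB Ighm (-0.31 to 0.26) and Ighd (-1.05 to 0.17), in scivMSC against DNCB Jchain (-0.54 to 0.25), Igha (-0.35 to 0.24) and Ighg1 (-0.48 to 0.21), and in scMSC against Solvent Jchain (-0.39 to 0.40) and Igha (-0.47 to 0.38).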
